A study of Homo sapiens with 41 samples.

Results

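Knockdown of ATF4 in thapsigargin-treated LX-2 cells was measured in 4 libraries, 2 from shATF4 cells and 2 from shCtrl cells, chosen by their labels out of 32 RNA sequencing libraries and 41 samples in the series. LX-2 is an immortalised human hepatic stellate cell line, and stellate cells are the liver cells that lay down scar matrix once activated. Cells of both groups were given thapsigargin, which blocks the calcium pump of the endoplasmic reticulum (ER) and so causes ER stress. Both also carried a short hairpin RNA, directed at ATF4 in the shATF4 cells and serving as a control in the shCtrl cells. The labels name no other hairpin, dose or treatment time, and do not say whether replicates were separate cultures, so the p-values measure the spread between these libraries, which may be technical. A further 3 settings, each with 2 shATF4 and 2 shCtrl libraries, served for comparison. These were LX-2 cells in DMSO, the solvent control, LX-2 cells in the condition labelled AA_Dep, and HMLE cells in thapsigargin. LX-2 cells in the setting labelled TGFbeta, again 2 shATF4 and 2 shCtrl libraries, entered every LX-2 fit, its estimate of spread and the scaling, and their own changes are not reported here. HMLE is an immortalised human mammary epithelial cell line. HMLE libraries in DMSO, in AA_Dep and in the setting labelled Twist_OE, with both hairpins, entered the fits that compared the cell lines. They shared in the filter, the scaling and the estimate of spread there, and their own changes are not reported here. The study concerns ATF4 in hepatic stellate cells and liver fibrosis, and its 9 ChIP-seq samples were not analysed here.

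ATF4 is the transcription factor of the integrated stress response. When the ER is stressed, the kinase PERK phosphorylates the translation factor eIF2alpha, most protein synthesis slows, and ATF4 messenger RNA is translated more. ATF4 then pairs with other basic leucine zipper (bZIP) proteins on C/EBP-ATF elements and switches on genes for amino acid synthesis, amino acid uptake, tRNA charging and, under lasting stress, cell death. The ATF6 and IRE1-XBP1 arms of the same unfolded protein response mainly raise chaperones and the degradation of misfolded proteins. Activated stellate cells secrete large amounts of collagen, whose folding passes through the ER and whose sequence is rich in glycine and proline.

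The 2 shCtrl libraries in thapsigargin were unlike each other. Total counts were 16377881 and 14551191 in the shATF4 libraries, against 17213000 in shCtrl replicate 1 and 15247910 in shCtrl replicate 2. Genes with at least 1 count numbered 23946 and 23263 in the shATF4 libraries, against 24036 and 15840 in shCtrl replicates 1 and 2, and the other 12 LX-2 libraries held 22912 to 24255. Ribosomal protein genes took 3.38% and 3.07% of counts with shATF4, against 4.08% and 12.2% with shCtrl, and mitochondrially encoded genes took 2.44% and 2.68%, against 2.34% and 0.154%. shCtrl replicate 2 was the outlying library in all 3 measures. Why it stood apart was not tested, and results with and without it are given below. Levels below are CPM (counts relative to library size) scaled by TMM factors over the 16 LX-2 libraries, called normalised CPM, and these factors were 1.10 and 1.10 with shATF4, against 1.11 and 0.587 with shCtrl.

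**Figure D1:**
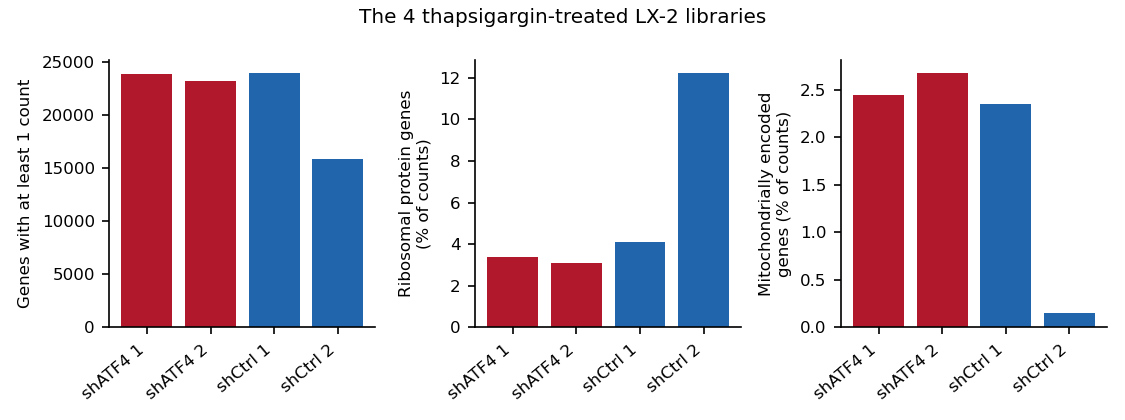
Genes with at least 1 count, share of counts in ribosomal protein genes and share in mitochondrially encoded genes (vertical axes), for shATF4 replicates 1 and 2 (red) and shCtrl replicates 1 and 2 (blue) of thapsigargin-treated LX-2 cells; each bar is 1 library. shCtrl replicate 2 had 15840 genes with counts, while the other 3 libraries had 23263 to 24036.

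Agreement within the groups differed in the same way. Among genes averaging 10 to 100 normalised CPM, 0.0951% differed more than 2-fold between the shATF4 libraries, against 56% between the shCtrl libraries. Across genes, log2(CPM + 1) correlated at 0.9952 between the shATF4 libraries and at 0.8526 between the shCtrl libraries, a description in which genes are not independent replicates. Each comparison was therefore made 3 times with edgeR's quasi-likelihood test, with shCtrl replicate 1 alone, with shCtrl replicate 2 alone and with both. In the first 2 the lone shCtrl library was assumed to vary like the other LX-2 groups. Against shCtrl replicate 1, 969 of 18649 genes (5.2%) passed an adjusted p of 0.05, 580 higher (3.11%) and 389 lower (2.09%) with shATF4. That balance moved with the setting: 91 were higher and 100 lower with an absolute log2 change of at least 1, and 1284 were higher and 1331 lower when the fit held the compared groups alone. Against shCtrl replicate 2, 13731 of 19054 genes (72.1%) passed, 8190 higher (43%) and 5541 lower (29.1%), and the median log2 change of all genes was 0.66. With both shCtrl libraries, 41 of 17772 genes (0.231%) passed, 24 higher (0.135%) and 17 lower (0.0957%), whereas DESeq2 called 1163 higher and 3034 lower and edgeR with no count filter 1406 higher and 2563 lower. In what follows, "rose" and "fell" refer to genes past the threshold against shCtrl replicate 1, where the median log2 change of all genes was 0.01, and the lists' counts and most genes' changes against shCtrl replicate 2, where 43% of all genes were higher and 29.1% lower, are set beside them. Where a pair of log2 changes is given for a gene, replicate 1 comes first and replicate 2 second. The comparisons share the shATF4 libraries and are not independent. With both shCtrl libraries, 6 stress response targets passed and at most 1 gene of any other list. Without shATF4 replicate 1, 490 genes passed against shCtrl replicate 1, and without shATF4 replicate 2, 422 did. Among genes named below, 19 calls were lost without each of these libraries. Those lost without replicate 2 included GDF15, ADM2, CRELD2 and PYCR1, and those lost without replicate 1 included CBS, XBP1, PSPH and IFI6. The other lost calls are not marked below. Of the 548 genes of the lists used below, all were found in the files.

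Cell type markers were read in the same 4 libraries. LX-2 cells held stellate and mesenchymal transcripts, with summed levels of 3188 and 3245 normalised CPM with shATF4, against 2126 and 4072 with shCtrl. Of 13 tested, 6 rose and none fell against shCtrl replicate 1 (VIM, NGFR, COL1A1, COL1A2, COL3A1 and SPARC), with a median log2 change of 0.56, and 9 were higher and 2 lower against replicate 2. The last 4 of these genes also belong to the matrix lists below. Epithelial markers summed to 457 and 416, against 412 and 3186, and the high value of shCtrl replicate 2 came from the keratin genes KRT8 and KRT18. KRT8 had 323 and 292 normalised CPM with shATF4, against 289 in shCtrl replicate 1 and 2068 in shCtrl replicate 2. KRT18 had 120.1 and 111 normalised CPM with shATF4, against 111 in shCtrl replicate 1 and 1106 in shCtrl replicate 2. The part of these markers in the results was not tested. Fewer cells of a type and less RNA per cell cannot be told apart in bulk libraries. Hepatocyte markers summed to 7.35 and 7.43, against 7.09 and 9.17, and leukocyte markers to 5.62 and 8.18, against 2.82 and 9.28. Endothelial markers summed to 111 and 110.4, against 111 and 78.2. Of each list, 13 stellate, 8 epithelial, 8 endothelial, 6 leukocyte and 1 hepatocyte genes passed the filter.

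ATF4 itself was lower in both shATF4 libraries than in both shCtrl libraries. Its level was 213 and 191 normalised CPM with shATF4, against 601 in shCtrl replicate 1 and 1339 in shCtrl replicate 2. The log2 change was -1.58 ± 0.12 (SE) against replicate 1, with an adjusted p of 1.5e-06, -2.67 against replicate 2 and -2.26 with both, where the adjusted p was 0.017. In plain CPM, without the TMM factors, the log2 ratio was -1.60 against replicate 1 and -1.82 against replicate 2. The direction of the label thus held under both scalings and against each control library, and any other change against replicate 2 moves by the same amount when plain CPM are used. In DMSO, ATF4 stood at 128 and 115 normalised CPM with shATF4, against 219 and 239.8 with shCtrl, a log2 change of -0.91. The effects in thapsigargin and in DMSO differed by -0.67 on the log2 scale (adjusted p = 0.019), a call lost without shATF4 replicate 2 (adjusted p = 0.082), without shATF4 DMSO replicate 1 (0.087) or without shCtrl DMSO replicate 1 (0.070). With both shCtrl libraries the difference was -1.35 and did not pass in edgeR (adjusted p = 0.26). In thapsigargin, shATF4 cells held ATF4 transcript a little below the level of shCtrl cells in DMSO.

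Targets of the integrated stress response fell as a group. Of 22 listed genes, 21 passed the filter on low counts, FGF21 being left out, and 18 fell against shCtrl replicate 1 while 0 rose, with a median log2 change of -1.12. Against shCtrl replicate 2, 15 of them were lower and 5 higher, and their median lay -1.88 from that of all genes on the log2 scale. With both shCtrl libraries, 6 passed, all lower. Their summed level was 1739 and 1673 normalised CPM with shATF4, against 3469 and 6704 with shCtrl. For 16 of the 21, both shATF4 libraries lay below both shCtrl libraries, while 19.5% of all genes did so; in plain CPM the numbers were 13 and 14.1%.

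CHAC1, an enzyme that degrades glutathione, had 20.05 and 21.2 normalised CPM with shATF4, against 92.7 in shCtrl replicate 1 and 57.9 in shCtrl replicate 2. The shATF4 libraries lay together, well below both shCtrl libraries. Its log2 change was -2.17 ± 0.18 against replicate 1 (adjusted p = 3.8e-06), -1.43 against replicate 2 and -1.87 with both (adjusted p = 0.021). TRIB3, a pseudokinase that restrains AKT and ATF4, had 149 and 156 normalised CPM with shATF4, against 443 in shCtrl replicate 1 and 776 in shCtrl replicate 2. Its log2 changes were -1.54 and -2.29, and -1.999 with both shCtrl libraries (adjusted p = 0.010). STC2, a secreted glycoprotein, had 204 and 179 normalised CPM with shATF4, against 565 in shCtrl replicate 1 and 412 in shCtrl replicate 2, with log2 changes of -1.56 and -1.04. SESN2, a leucine sensor that inhibits mTORC1, had 72.5 and 64.2 normalised CPM with shATF4, against 145 in shCtrl replicate 1 and 196 in shCtrl replicate 2, with log2 changes of -1.08 and -1.46. In none of these 4 genes did the groups overlap, and the 2 shATF4 libraries were close to each other. RAB39B, a small GTPase of vesicle traffic, had 10.9 and 12.05 normalised CPM with shATF4, against 35.6 in shCtrl replicate 1 and 27.8 in shCtrl replicate 2, again without overlap, with log2 changes of -1.64 and -1.22.

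In other targets the size of the change depended on the control library. NUPR1, a stress-induced chromatin protein, had 17.3 and 14.6 normalised CPM with shATF4, against 71.8 in shCtrl replicate 1 and 594 in shCtrl replicate 2, and its log2 change was -2.17 against replicate 1 and -5.15 against replicate 2. DDIT3, which encodes the death-promoting factor CHOP, had 125 and 129 normalised CPM with shATF4, against 253 in shCtrl replicate 1 and 1707 in shCtrl replicate 2. Its log2 change was -0.996 ± 0.12 against replicate 1 (adjusted p = 1.2e-04) and -3.69 against replicate 2. For both genes the shATF4 libraries were the lowest and shCtrl replicate 2 was the highest. EIF4EBP1, the translation repressor 4E-BP1, had 121 and 97.7 normalised CPM with shATF4, against 259.96 in shCtrl replicate 1 and 1695 in shCtrl replicate 2, in the same order, with log2 changes of -1.25 and -3.89. The hormone genes GDF15 and ADM2 fell by the largest amounts in the list, at low levels. GDF15, which signals to the brainstem to lower appetite, had 3.17 and 2.56 normalised CPM with shATF4, against 16.5 in shCtrl replicate 1 and 30.2 in shCtrl replicate 2, a log2 change of -2.52 ± 0.48 against replicate 1 and -3.33 against replicate 2. ADM2 had 1.61 and 0.812 normalised CPM with shATF4, against 5.63 in shCtrl replicate 1 and 9.28 in shCtrl replicate 2, with log2 changes of -2.19 ± 0.46 and -2.85.

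ATF3 turned direction with the control library. This bZIP repressor had 12.5 and 13.98 normalised CPM with shATF4, against 33.1 in shCtrl replicate 1 and 8.83 in shCtrl replicate 2, so shCtrl replicate 1 lay above both shATF4 libraries and replicate 2 below them. Its log2 change was -1.32 against replicate 1 (adjusted p = 9.3e-05) and 0.64 against replicate 2. CEBPG, a dimer partner of ATF4, showed the same split, with log2 changes of -0.42 and 0.42. VLDLR, XPOT and TXNIP did not pass against replicate 1, at -0.68, -0.31 and -0.031 on the log2 scale, and were 1.19, 1.46 and 1.14 against replicate 2.

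**Figure D2:**
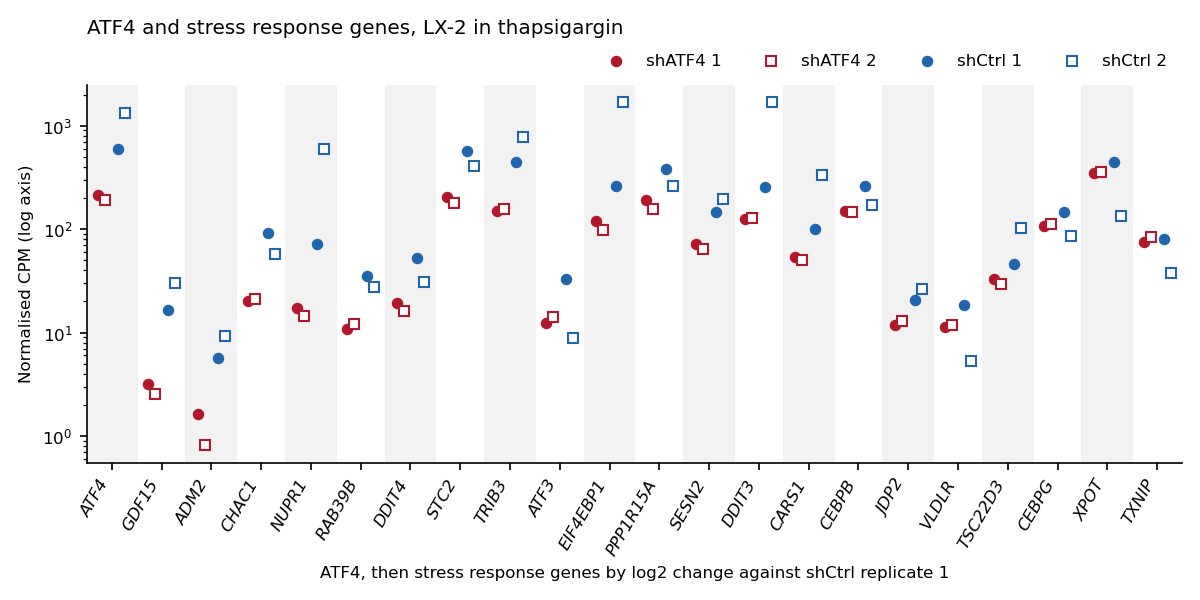
Level (normalised CPM, log axis) of ATF4 and of the 21 tested integrated stress response genes, ordered from the most negative log2 change against shCtrl replicate 1, in shATF4 replicates 1 and 2 (red filled circles and open squares) and shCtrl replicates 1 and 2 (blue filled circles and open squares) of thapsigargin-treated LX-2 cells; each point is 1 library. shATF4 libraries lay below shCtrl replicate 1 for every gene except TXNIP, and shCtrl replicate 2 (open blue squares) lay on either side.

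Promoters were read for genes that stand for the main groups: 3 with a C/EBP-ATF core (CHAC1, the asparagine synthetase gene ASNS and the alanyl-tRNA synthetase gene AARS1) and 2 with an ER stress element, to which ATF6 binds (HSPA5 and CRELD2, both described below). Each sequence spans 250 bases before to 50 after the start site given by RefSeq (GRCh38.p14), on the gene's own strand, 5′ to 3′, with the motif in capitals.
CHAC1 (chr15:40953221-40953520, + strand): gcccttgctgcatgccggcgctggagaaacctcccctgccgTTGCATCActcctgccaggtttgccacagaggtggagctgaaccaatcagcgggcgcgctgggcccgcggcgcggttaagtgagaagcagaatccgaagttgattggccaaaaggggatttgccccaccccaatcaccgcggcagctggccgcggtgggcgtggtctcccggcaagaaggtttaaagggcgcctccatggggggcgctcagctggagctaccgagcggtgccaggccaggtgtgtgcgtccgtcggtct
ASNS (chr7:97872359-97872658, - strand): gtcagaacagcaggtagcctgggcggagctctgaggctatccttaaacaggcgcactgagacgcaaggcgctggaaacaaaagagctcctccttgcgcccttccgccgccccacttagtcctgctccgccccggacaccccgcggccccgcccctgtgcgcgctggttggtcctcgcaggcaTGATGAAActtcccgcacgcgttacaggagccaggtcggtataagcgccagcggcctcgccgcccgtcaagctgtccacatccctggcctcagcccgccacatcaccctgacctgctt
AARS1 (chr16:70289457-70289756, - strand): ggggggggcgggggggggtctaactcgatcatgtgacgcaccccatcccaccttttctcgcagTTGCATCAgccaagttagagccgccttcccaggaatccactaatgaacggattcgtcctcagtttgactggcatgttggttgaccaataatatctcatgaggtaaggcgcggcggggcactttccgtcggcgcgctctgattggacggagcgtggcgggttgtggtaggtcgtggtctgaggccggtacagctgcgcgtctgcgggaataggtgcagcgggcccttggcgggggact
HSPA5 (chr9:125241294-125241593, - strand): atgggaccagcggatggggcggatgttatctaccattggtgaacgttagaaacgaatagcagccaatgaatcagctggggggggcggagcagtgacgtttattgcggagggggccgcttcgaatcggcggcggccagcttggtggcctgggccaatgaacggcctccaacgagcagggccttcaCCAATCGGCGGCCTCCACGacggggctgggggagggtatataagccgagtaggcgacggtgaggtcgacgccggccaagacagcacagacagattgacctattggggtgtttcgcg
CRELD2 (chr22:49918384-49918683, + strand): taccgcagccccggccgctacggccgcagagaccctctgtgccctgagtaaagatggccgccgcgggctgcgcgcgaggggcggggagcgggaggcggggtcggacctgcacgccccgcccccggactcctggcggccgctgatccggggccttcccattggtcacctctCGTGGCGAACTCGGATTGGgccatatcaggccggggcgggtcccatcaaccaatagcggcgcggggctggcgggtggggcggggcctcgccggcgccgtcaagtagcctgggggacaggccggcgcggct

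The C/EBP-ATF core was searched as TGATGNAA and the ER stress element as CCAAT and CCACG with 9 bases between them, both on either strand. The core began at position -209 from the start site in CHAC1, -68 in ASNS and -187 in AARS1. In CHAC1 and AARS1 it lay on the opposite strand. The ER stress element began at -66 in HSPA5 and at -80 in CRELD2, on the opposite strand in CRELD2. The core occurred in 3.62% of the 35116 RefSeq promoters and in 1.77% of the 12472 that matched a tested gene. It occurred in 17 of the 297 matched promoters of genes that fell (5.72%) and in 9 of the 453 of genes that rose (1.99%). By group, it was found in 6 of 16 aminoacyl-tRNA synthetases, 3 of 12 amino acid transporters and 3 of 18 stress response targets. The ER stress element occurred in 6 of 18 chaperone promoters and in 14 of the matched tested genes (0.112%). These matches describe letters in a window and do not show binding.

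The bZIP factors include ATF4 and the proteins it pairs with. Of 20 tested, ATF4 included, 7 fell and 1 rose against shCtrl replicate 1, while against replicate 2, 8 were higher and 5 lower. CEBPB, a partner of ATF4 on C/EBP-ATF elements, had 151 and 148 normalised CPM with shATF4, against 262 in shCtrl replicate 1 and 171 in shCtrl replicate 2, with log2 changes of -0.81 and -0.13. NFE2L1, which drives proteasome genes, had 349 and 327 normalised CPM with shATF4, against 567 in shCtrl replicate 1 and 401 in shCtrl replicate 2, with log2 changes of -0.75 and -0.19. In both genes the shATF4 libraries were the lowest in normalised CPM, with shCtrl replicate 2 close to them, and in plain CPM replicate 2 was no longer above both. MAFF, a small MAF factor, had log2 changes of -0.64 against replicate 1 and 2.43 against replicate 2. FOSL2, an AP-1 subunit, was the one that rose (0.37 and 1.16).

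Among 13 genes of eIF2alpha phosphorylation, 2 fell, and against replicate 2, 7 were higher and 5 lower. PPP1R15A, the stress-induced phosphatase subunit GADD34 that reverses eIF2alpha phosphorylation, had 191 and 158 normalised CPM with shATF4, against 379 in shCtrl replicate 1 and 264 in shCtrl replicate 2. All shATF4 values lay below all shCtrl values in normalised but not in plain CPM, and the log2 change was -1.12 ± 0.13 against replicate 1 (adjusted p = 1.1e-04) and -0.53 against replicate 2. EIF2AK3, which encodes PERK, had 25.1 and 25.5 normalised CPM with shATF4, against 42.2 in shCtrl replicate 1 and 7.04 in shCtrl replicate 2, so replicate 1 lay above the shATF4 libraries and replicate 2 below them (-0.74 and 1.90). The constitutive phosphatase subunit gene PPP1R15B did not pass (0.38 against replicate 1) and was 2.35 against replicate 2.

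The other arms of the unfolded protein response changed in part. Of 11 genes of the IRE1-XBP1 and ATF6 arms, 4 fell and 1 rose, with a median of -0.25, whereas against replicate 2, 7 were higher and 3 lower, with a median of 0.83. XBP1, the factor made active by IRE1 splicing, had 133 and 139.9 normalised CPM with shATF4, against 204 in shCtrl replicate 1 and 217 in shCtrl replicate 2. Its log2 changes were -0.58 and -0.61, but in plain CPM the log2 ratio against replicate 2 was 0.23. ERN1, which encodes IRE1alpha, had 33.8 and 28.7 normalised CPM with shATF4, against 46.8 in shCtrl replicate 1 and 25.3 in shCtrl replicate 2, and shCtrl replicate 2 lay below both shATF4 libraries (-0.58 and 0.37). CREB3L1, an ER-bound factor that activates collagen genes, rose, with 129 and 130.2 normalised CPM with shATF4, against 93.8 in shCtrl replicate 1 and 59.8 in shCtrl replicate 2 and no overlap, and its log2 changes were 0.47 and 1.18.

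ER chaperones fell in part. Of 20 tested, 5 fell against shCtrl replicate 1 (HSPA5, CRELD2, HYOU1, DNAJB11 and CALR), none rose, and the median was -0.30. Against replicate 2, 8 were higher and 11 lower. HSPA5, the main ER chaperone BiP, had 6045 and 6304 normalised CPM with shATF4, against 10969.7 in shCtrl replicate 1 and 13720.1 in shCtrl replicate 2. Both shATF4 libraries lay below both shCtrl libraries, and the log2 change was -0.83 ± 0.067 against replicate 1 (adjusted p = 2.5e-06), -1.09 against replicate 2 and -0.9995 with both (adjusted p = 0.028). In plain CPM the log2 ratio was -0.85 against replicate 1 and -0.25 against replicate 2. CRELD2, a secreted disulfide isomerase, had 234 and 207 normalised CPM with shATF4, against 408 in shCtrl replicate 1 and 1738 in shCtrl replicate 2, with log2 changes of -0.89 and -2.92. HYOU1, the exchange factor of BiP, had 772 and 735 normalised CPM with shATF4, against 1163 in shCtrl replicate 1 and 471 in shCtrl replicate 2, and its log2 change was -0.63 against replicate 1 and 0.74 against replicate 2. HSP90B1, the chaperone GRP94, did not pass against replicate 1 (-0.31) and was -2.58 against replicate 2. In ER-associated degradation, 2 of 16 fell, HERPUD1 (-0.76 and -1.31) and SELENOS (-0.48 and -1.87), and 6 were higher and 8 lower against replicate 2.

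Enzymes of serine, glycine and one-carbon metabolism fell in part. Of 12 tested, 7 fell and none rose against shCtrl replicate 1, with a median of -0.63, and against replicate 2, 3 were higher and 7 lower. PHGDH, which opens serine synthesis, had 201 and 205 normalised CPM with shATF4, against 382 in shCtrl replicate 1 and 2157 in shCtrl replicate 2. Its log2 change was -0.92 ± 0.10 (adjusted p = 8.4e-05) against replicate 1 and -3.35 against replicate 2. PSAT1, the next enzyme, had 159.8 and 167 normalised CPM with shATF4, against 463 in shCtrl replicate 1 and 150.4 in shCtrl replicate 2. Here replicate 1 stood apart from the other 3 libraries, and the log2 change was -1.50 ± 0.087 (adjusted p = 1.5e-07) against replicate 1 but 0.18 against replicate 2. PSPH, which completes serine synthesis, had 16.5 and 19.9 normalised CPM with shATF4, against 27.3 in shCtrl replicate 1 and 25.4 in shCtrl replicate 2, with log2 changes of -0.59 and -0.42. SHMT2, which makes glycine from serine in mitochondria, had 306 and 283 normalised CPM with shATF4, against 600.5 in shCtrl replicate 1 and 1466 in shCtrl replicate 2, with log2 changes of -1.03 and -2.25 and no overlap. The mitochondrial folate enzymes MTHFD2 and ALDH1L2 fell against replicate 1 (-0.95 and -1.36), and were 0.12 and 0.98 against replicate 2. The cytosolic enzymes SHMT1 and MTHFD1 did not pass against replicate 1 (0.018 and 0.10), and were -0.73 and 1.92 against replicate 2.

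Among enzymes for asparagine, proline, glutamine and alanine, 4 of 11 fell, and against replicate 2, 4 were higher and 4 lower. ASNS had 3.68 and 2.87 normalised CPM with shATF4, against 9.96 in shCtrl replicate 1 and 4.58 in shCtrl replicate 2, with log2 changes of -1.60 ± 0.26 (adjusted p = 0.0017) and -0.42. PYCR1, which makes proline in mitochondria, had 171 and 151 normalised CPM with shATF4, against 298 in shCtrl replicate 1 and 185 in shCtrl replicate 2, with log2 changes of -0.89 and -0.14. GOT1, the cytosolic aspartate aminotransferase, had 125 and 126 normalised CPM with shATF4, against 217 in shCtrl replicate 1 and 266 in shCtrl replicate 2, with log2 changes of -0.79 and -1.02. In these 3 genes both shATF4 libraries lay below both shCtrl libraries, although for ASNS and PYCR1 not in plain CPM. The proline enzyme ALDH18A1 did not change beyond the threshold (0.031 and -0.026). In transsulfuration and glutathione metabolism 3 of 10 fell, CHAC1, SLC7A11 and CBS, and against replicate 2, 5 were higher and 4 lower. CBS, which condenses homocysteine and serine, had 7.30 and 11.9 normalised CPM with shATF4, against 32.96 in shCtrl replicate 1 and 25.05 in shCtrl replicate 2, with log2 changes of -1.78 and -1.33.

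Aminoacyl-tRNA synthetases load amino acids onto tRNAs. Of 20 tested, 9 fell against shCtrl replicate 1 (GARS1, CARS1, YARS1, WARS1, SARS1, AARS1, MARS1, NARS1 and TARS1) and none rose, while 6 were higher and 13 lower against replicate 2. GARS1, for glycine, had 172 and 189 normalised CPM with shATF4, against 381 in shCtrl replicate 1 and 426 in shCtrl replicate 2. No values overlapped, and the log2 change was -1.08 ± 0.092 against replicate 1 (adjusted p = 4.4e-06), -1.18 against replicate 2 and -1.16 with both (adjusted p = 0.011). YARS1, for tyrosine, had 175 and 172 normalised CPM with shATF4, against 308 in shCtrl replicate 1 and 746 in shCtrl replicate 2, with log2 changes of -0.83 and -2.04. AARS1 had 436 and 419 normalised CPM with shATF4, against 632 in shCtrl replicate 1 and 926 in shCtrl replicate 2, with log2 changes of -0.56 and -1.05. For MARS1, NARS1 and TARS1 the change against replicate 1 was -0.49, -0.39 and -0.33, and against replicate 2 it was 0.63, 0.83 and 0.96. KARS1 and RARS1 had changes of 0.020 and 0.15 against replicate 1, which did not pass, and of -1.44 and -1.38 against replicate 2. In DMSO, 0 synthetases passed in edgeR in either direction, and 6 had an unadjusted p under 0.05.

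Among amino acid transporters, 6 of 14 fell and none rose against shCtrl replicate 1, with a median of -0.39. Replicate 2 gave another balance, since 7 were higher and 6 lower against it, with a median of 0.84. SLC7A5, the large neutral amino acid carrier LAT1, had 21.6 and 21.8 normalised CPM with shATF4, against 62.2 in shCtrl replicate 1 and 36.7 in shCtrl replicate 2, with log2 changes of -1.52 ± 0.12 (adjusted p = 1.5e-06) and -0.70. SLC3A2, its heavy chain, had 889 and 818 normalised CPM with shATF4, against 1550.4 in shCtrl replicate 1 and 2559 in shCtrl replicate 2, with log2 changes of -0.86 and -1.52. Neither gene's groups overlapped in normalised CPM, and SLC3A2 kept this in plain CPM while SLC7A5 did not. SLC7A11, the cystine carrier xCT, had 39.8 and 43.9 normalised CPM with shATF4, against 103 in shCtrl replicate 1 and 26.9 in shCtrl replicate 2, so its log2 change was -1.30 against replicate 1 and 0.69 against replicate 2. SLC38A1, a glutamine carrier, had the same split (-0.98 and 1.17). The serine and glutamine carrier SLC1A5 fell against both (-0.63 and -1.08).

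Growth and death regulators gave shorter lists. Of 11 mTORC1 inhibitors 3 fell (DDIT4, EIF4EBP1 and SESN2), and SESN3 rose (0.94 and 3.83), while 5 were higher and 3 lower against replicate 2. DDIT4, which restrains mTORC1 through TSC2, had 19.4 and 16.2 normalised CPM with shATF4, against 53.03 in shCtrl replicate 1 and 30.97 in shCtrl replicate 2. Its log2 changes were -1.57 and -0.74, but in plain CPM the log2 ratio against replicate 2 was 0.11. Of 19 apoptosis genes 3 fell and none rose, whereas 10 were higher and 5 lower against replicate 2. TNFRSF10B, the TRAIL receptor DR5 that CHOP induces, had 111 and 105 normalised CPM with shATF4, against 210.5 in shCtrl replicate 1 and 77.04 in shCtrl replicate 2, so its log2 change was -0.96 ± 0.084 (adjusted p = 5.8e-06) against replicate 1 and 0.55 against replicate 2. HRK, a BH3-only activator of death, had 2.90 and 2.43 normalised CPM with shATF4, against 6.94 in shCtrl replicate 1 and 10.5 in shCtrl replicate 2. In DMSO it had 0.347 and 0.729 normalised CPM with shATF4, against 0 and 0.0529 with shCtrl, the opposite order. Its log2 changes in thapsigargin were -1.37 and -1.91, and the fitted difference from DMSO, -5.45 (adjusted p = 0.0037), rests on shCtrl libraries at or near 0 counts in DMSO and is no bound. In autophagy, MAP1LC3B, the gene of the autophagosome marker LC3B, fell (-0.78 and -0.82, but 0.0225 against replicate 2 in plain CPM). GABARAPL1 fell against replicate 1 (-0.48 and 0.36). These were the 2 of 14 autophagy genes that passed, and 6 were higher and 6 lower against replicate 2.

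**Figure D3:**
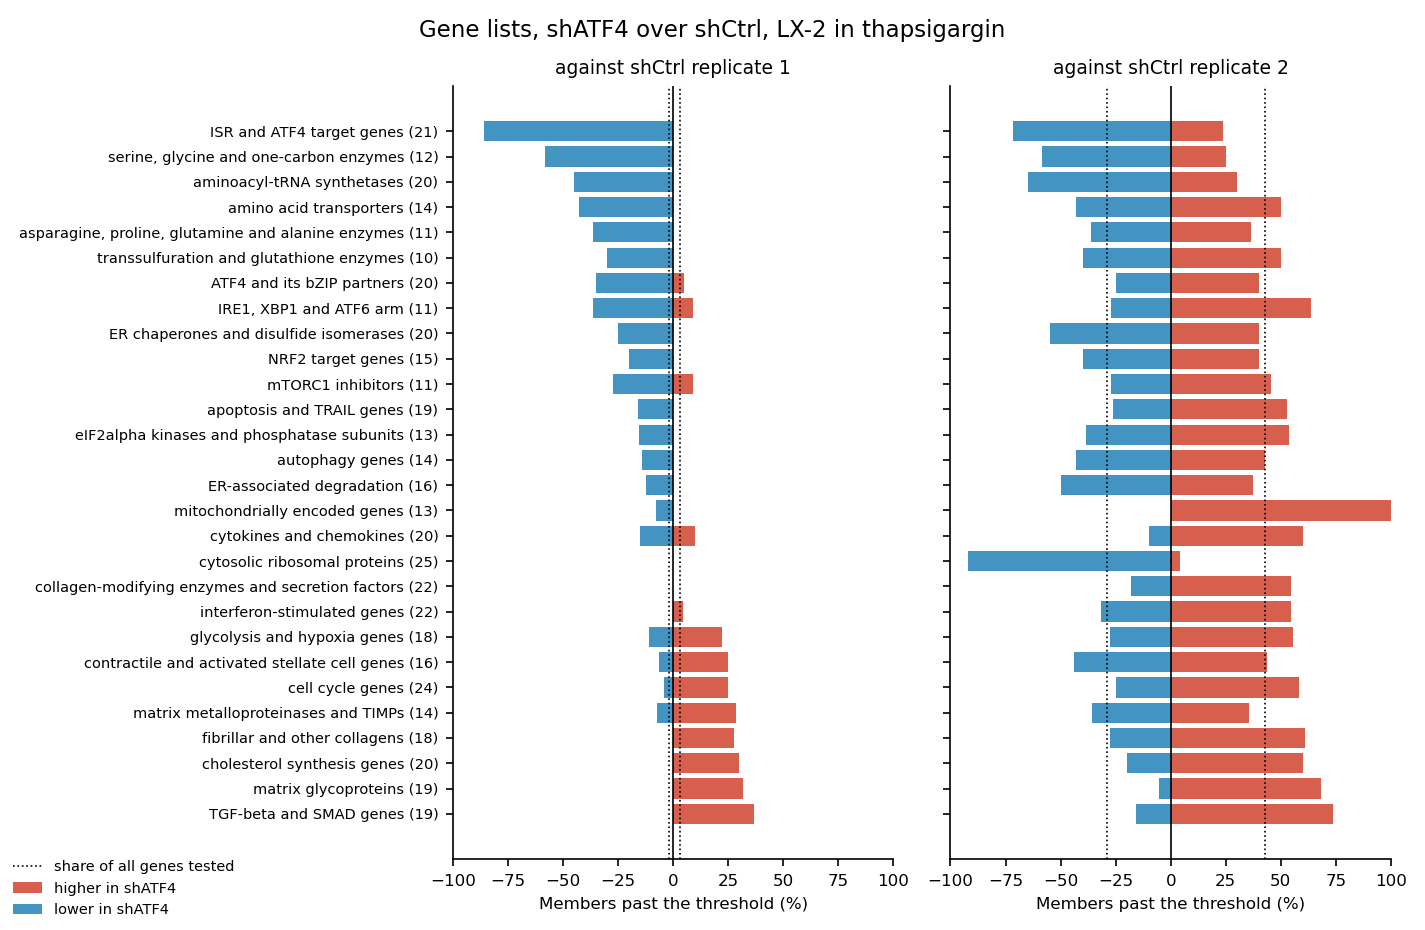
Share of tested members past an adjusted p of 0.05 (horizontal axes, %; lower with shATF4 to the left of 0, higher to the right) for each gene list, with the number tested in brackets and cell type markers not drawn; shATF4 against shCtrl replicate 1 (left) and against shCtrl replicate 2 (right), LX-2 in thapsigargin, in the order of the left panel, with dotted lines at the share of all genes tested (2.09% lower and 3.11% higher on the left, 29.1% lower and 43% higher on the right). Against replicate 1 the stress response targets, with 18 of 21 lower, lie at one end and TGF-beta genes, with 7 of 19 higher, at the other; against replicate 2 every list drawn except the mitochondrially encoded genes has members on both sides.

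Matrix genes were in part higher in shATF4 cells in thapsigargin, while many were lower in shATF4 cells in DMSO. Of 18 collagen genes tested, 5 rose and none fell against shCtrl replicate 1. With replicate 2 as the control, 11 were higher and 5 lower. When both were used, 0 collagens passed in edgeR, 9 had an unadjusted p under 0.05, and DESeq2 called 6 higher and 3 lower. The stellate and mesenchymal markers, in part the same genes, also moved (6 of 13 rose and none fell against replicate 1), and their part was not tested. In DMSO, where 11.6% of all genes passed (6.28% higher, 5.3% lower), 12 were lower with shATF4 and none higher, with a median of -0.79. The difference between the 2 effects passed for 1143 of all genes (6.13%), 684 higher (3.67%) and 459 lower (2.46%) in thapsigargin, and for 10 of the collagens, all higher, with a median of 0.90. Matrix glycoproteins gave 6 of 19 higher and none lower against replicate 1 in thapsigargin, 13 higher and 1 lower against replicate 2, and 10 lower and 2 higher in DMSO, and the difference passed for 8, all higher.

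COL3A1, a fibrillar collagen of scar, had 46.2 and 43.01 normalised CPM with shATF4, against 10.8 in shCtrl replicate 1 and 0.224 in shCtrl replicate 2. shCtrl replicate 2 held 2 counts of it, so its ratio there, 199.9-fold, has a 95% counting interval of 55.2 to 1652. Against replicate 1 the log2 change was 2.05 ± 0.12 (adjusted p = 1.5e-07). In DMSO COL3A1 had 89.8 and 93.005 normalised CPM with shATF4, against 253 and 261 with shCtrl, a log2 change of -1.48. The effects differed by 3.53 with replicate 1. With both shCtrl libraries the difference was 4.43 and did not pass in edgeR (adjusted p = 0.19). COL1A1, the main chain of type I collagen, had 1035 and 1063 normalised CPM with shATF4, against 688 in shCtrl replicate 1 and 552 in shCtrl replicate 2. Both shATF4 libraries were above both shCtrl libraries, with log2 changes of 0.61 ± 0.070 (adjusted p = 9.1e-05) and 0.99. In DMSO it had 2475 and 2437 normalised CPM with shATF4, against 4883 and 5091 with shCtrl, so the order was turned, and the effects differed by 1.62 (adjusted p = 2.9e-08). COL1A2, the partner chain, had 6.91 and 6.62 normalised CPM with shATF4, against 2.71 in shCtrl replicate 1 and 3.69 in shCtrl replicate 2, with log2 changes of 1.32 and 0.93. COL6A3 and COL8A1 also rose (0.63 and 0.89 against replicate 1, 2.02 and 3.25 against replicate 2). The fibrillar collagens COL5A1 and COL5A2 did not pass against replicate 1 (-0.33 and -0.24) and were 0.41 and 1.18 against replicate 2.

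Of the glycoproteins, THBS1, an activator of latent TGF-beta, had 122 and 132 normalised CPM with shATF4, against 50.2 in shCtrl replicate 1 and 15.9 in shCtrl replicate 2, with log2 changes of 1.34 ± 0.19 (adjusted p = 6.0e-04) and 3.06. SPARC, a collagen-binding protein, had 407 and 427 normalised CPM with shATF4, against 263 in shCtrl replicate 1 and 143 in shCtrl replicate 2, with log2 changes of 0.67 and 1.60. FBLN2, a fibulin of elastic fibres, had 243 and 238 normalised CPM with shATF4, against 144 in shCtrl replicate 1 and 141 in shCtrl replicate 2, with log2 changes of 0.74 and 0.83. The groups did not overlap in these 3 genes; of all genes, 29.1% lay higher in both shATF4 libraries in normalised CPM and 32.3% in plain CPM. FN1, fibronectin, had 1119.8 and 1156 normalised CPM with shATF4, against 1088 in shCtrl replicate 1 and 418 in shCtrl replicate 2, and its log2 change did not pass against replicate 1 (0.065) and was 1.51 against replicate 2. POSTN was listed at 0 counts in all 4 libraries. Of 22 collagen-modifying enzymes and secretion factors, 0 passed in edgeR, 6 had an unadjusted p under 0.05, and 0 passed in DESeq2, all against replicate 1; against replicate 2, 12 were higher and 4 lower.

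**Figure D4:**
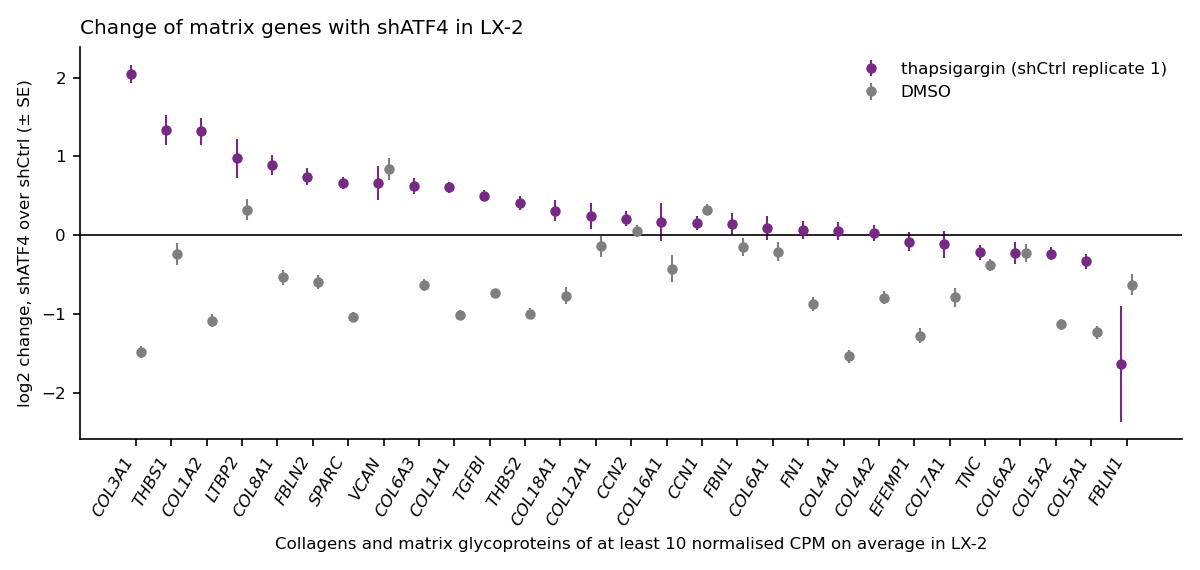
log2 change of 29 collagen and matrix glycoprotein genes, shATF4 over shCtrl (vertical axis, points with SE bars), in thapsigargin against shCtrl replicate 1 (purple) and in DMSO (grey), ordered by the change in thapsigargin; the genes average at least 10 normalised CPM over the LX-2 libraries. The change was positive for 22 of the 29 genes in thapsigargin and negative for 25 of them in DMSO; FBLN1, at the far right, has a wide error bar and a low level in thapsigargin.

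Genes of TGF-beta signalling also rose in part. Of 19 tested, 7 rose and none fell, and against replicate 2, 14 were higher and 3 lower. SMAD3, which carries the TGF-beta signal to collagen promoters, had 179 and 179 normalised CPM with shATF4, against 93.9 in shCtrl replicate 1 and 47.2 in shCtrl replicate 2. Its log2 change was 0.93 ± 0.10 against replicate 1 (adjusted p = 3.2e-05), 1.98 against replicate 2 and -0.52 in DMSO, where SMAD3 had 294 and 294 normalised CPM with shATF4, against 442 and 408 with shCtrl. TGFBR2, the ligand-binding receptor, had 94.9 and 103 normalised CPM with shATF4, against 61.7 in shCtrl replicate 1 and 8.95 in shCtrl replicate 2, with log2 changes of 0.68 and 3.53. The groups of both genes did not overlap. TGFB1, the ligand, rose against replicate 1 (0.64) but not against replicate 2 (-0.052). The inhibitor genes SMAD6 (0.70 and 1.02) and SKI (0.49 and 1.03) rose, while SMAD7 did not pass (-0.17 and 0.41).

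Among matrix proteases and their inhibitors, 4 of 14 rose and 1 fell, while 5 were higher and 5 lower against replicate 2. TIMP2, an inhibitor of matrix proteases, had 625 and 649 normalised CPM with shATF4, against 308 in shCtrl replicate 1 and 375 in shCtrl replicate 2, with log2 changes of 1.05 ± 0.091 (adjusted p = 5.8e-06) and 0.83. TIMP3 rose too (0.67 and 0.74). TIMP1 had 151 and 159.6 normalised CPM with shATF4, against 127 in shCtrl replicate 1 and 1301 in shCtrl replicate 2, and its log2 change did not pass against replicate 1 (0.29) and was -3.01 against replicate 2. MMP1, interstitial collagenase, was the member that fell, with 279 and 284 normalised CPM with shATF4, against 413 in shCtrl replicate 1 and 697 in shCtrl replicate 2. In DMSO it had 85.3 and 85.9 normalised CPM with shATF4, against 13.3 and 12.5 with shCtrl, the opposite order. The log2 change in thapsigargin was -0.55 against replicate 1 and -1.25 against replicate 2, that in DMSO was 2.75, and the effects differed by -3.30 (adjusted p = 1.0e-08).

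Contractile genes were mixed. Of 16 tested, 4 rose (MYH9, TPM1, SMTN and VCL) and 1, TAGLN, fell, while 7 were higher and 7 lower against replicate 2. TAGLN, an actin-binding protein of activated stellate cells, had 50.5 and 48.3 normalised CPM with shATF4, against 72.95 in shCtrl replicate 1 and 200.5 in shCtrl replicate 2, with log2 changes of -0.56 and -1.96. VCL, vinculin of focal adhesions, had 301 and 298 normalised CPM with shATF4, against 209.7 in shCtrl replicate 1 and 51.1 in shCtrl replicate 2, with log2 changes of 0.51 and 2.61. ACTA2, the smooth muscle actin used to mark activated stellate cells, was low, with 3.84 and 5.62 normalised CPM with shATF4, against 4.43 in shCtrl replicate 1 and 0 in shCtrl replicate 2. The 0 in replicate 2 puts the shATF4 level at least 14.1-fold higher than a floor of 3 counts there, while against replicate 1 the log2 change was 0.085 and did not pass.

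Secreted signals moved in both directions, with 2 of 20 cytokine genes higher and 3 lower against replicate 1, and 12 higher and 2 lower against replicate 2. CXCL12, the ligand of CXCR4, had 234 and 238 normalised CPM with shATF4, against 105 in shCtrl replicate 1 and 82.9 in shCtrl replicate 2, with log2 changes of 1.17 ± 0.088, 1.57 and, with both shCtrl libraries, 1.33 (adjusted p = 0.010). VEGFA, the angiogenic factor, had 44.4 and 39.02 normalised CPM with shATF4, against 141 in shCtrl replicate 1 and 29.3 in shCtrl replicate 2, so it fell against replicate 1 (-1.76, adjusted p = 1.6e-06) and was 0.57 against replicate 2. CXCL2, a neutrophil attractant, had 8.02 and 9.43 normalised CPM with shATF4, against 19.03 in shCtrl replicate 1 and 8.50 in shCtrl replicate 2, with log2 changes of -1.13 and 0.10. Of these 3 genes, CXCL12 was the one whose groups did not overlap.

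Cholesterol synthesis genes rose in part, 6 of 20 with none lower, and against replicate 2, 12 were higher and 4 lower. INSIG1, which holds SREBP in the ER, had 158 and 169 normalised CPM with shATF4, against 88.3 in shCtrl replicate 1 and 78.5 in shCtrl replicate 2, with log2 changes of 0.89 ± 0.11 (adjusted p = 1.3e-04) and 1.12. HMGCS1 had 245 and 262 normalised CPM with shATF4, against 158 in shCtrl replicate 1 and 33.7 in shCtrl replicate 2, with log2 changes of 0.68 and 2.97. In both genes the shATF4 libraries were the highest. Of 24 cell cycle genes, 6 rose and 1 fell, while 14 were higher and 6 lower against replicate 2. The proliferation antigen gene MKI67 had 371 and 372 normalised CPM with shATF4, against 217 in shCtrl replicate 1 and 157 in shCtrl replicate 2, with log2 changes of 0.77 and 1.31, and the inhibitor gene CDKN1A, which encodes p21, fell against replicate 1 (-0.56) and was 0.25 against replicate 2. Of 18 glycolysis and hypoxia genes, 4 rose and 2 fell, LDHA among the higher (0.58 and 1.43), and 10 were higher and 5 lower against replicate 2. Of 15 NRF2 targets, 3 fell, SLC7A11, HMOX1 (-0.75 and 0.16) and FTH1 (-0.49 and 0.017), and 6 were higher and 6 lower against replicate 2.

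Ribosomal protein genes did not pass against shCtrl replicate 1 in either direction (0 of 25 in edgeR, 1 in DESeq2 and 12 at an unadjusted p under 0.05, median -0.30). Against replicate 2, 23 were lower and 1 higher. Against replicate 1, the log2 change was negative for all 25 ribosomal protein genes. Their summed level was 14626 and 13078 normalised CPM with shATF4, against 16565 and 80312 with shCtrl. Mitochondrially encoded genes ran the other way, with 13 of 13 higher against replicate 2 and 1, MT-ND3 (-0.56 against replicate 1 and 4.14 against replicate 2), lower against replicate 1. Of 22 interferon-stimulated genes, 20 had a positive log2 change against replicate 1, with a median of 0.57, and 14 against replicate 2. IFI6 was the one past the threshold against replicate 1 (1.10, and -1.14 against replicate 2). Of all genes, 9541 of 18649 were positive against replicate 1 and 11536 of 19054 against replicate 2. In DMSO 20 of the 22 were positive as well, with a median of 0.66.

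Beyond the lists, the 8 genes highest and the 8 lowest were taken by the smaller of their changes against the 2 shCtrl libraries. They came from genes without overlap and with at least 5 CPM on average in the higher group. These genes also had to pass against replicate 1 and have the same sign against replicate 2. Their lack of overlap and their shared direction were thus fixed by the choice. COL3A1 came first, and C3, a complement component, came next, with 15.2 and 13.8 normalised CPM with shATF4, against 3.86 in shCtrl replicate 1 and 2.46 in shCtrl replicate 2. It had log2 changes of 1.91 and 2.62 and, with both shCtrl libraries, 2.17 (adjusted p = 0.0074). DUSP10, a phosphatase of the stress kinases JNK and p38, had 93.6 and 105 normalised CPM with shATF4, against 29.9 in shCtrl replicate 1 and 22.9 in shCtrl replicate 2, with log2 changes of 1.73, 2.17 and 1.91 (adjusted p with both = 0.0074). NGFR, the nerve growth factor receptor p75 that stellate cells carry, had 75.1 and 70.5 normalised CPM with shATF4, against 23.2 in shCtrl replicate 1 and 17.7 in shCtrl replicate 2, with log2 changes of 1.65, 2.10 and 1.83 (adjusted p with both = 0.0081). The chemokine gene CXCL6, the matrix gene LRRC17 and XDH, xanthine dehydrogenase, rose by 1.71, 1.48 and 1.46 against replicate 1 and were 2.25, 2.73 and 2.51 against replicate 2. LINC01085, a noncoding RNA, rose by 1.54 and was at 0 in shCtrl replicate 2, so shATF4 libraries were at least 39-fold higher than the floor of 3 counts there.

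Largest among the falls was MFAP2, a microfibril protein, with 0.446 and 0.437 normalised CPM with shATF4, against 3.65 in shCtrl replicate 1 and 8.95 in shCtrl replicate 2, and log2 changes of -3.03 and -4.26. OSCAR, an immunoglobulin-like receptor that binds collagen, had 0.891 and 1.44 normalised CPM with shATF4, against 8.60 in shCtrl replicate 1 and 13.6 in shCtrl replicate 2, with log2 changes of -2.89, -3.49 and -3.25 (adjusted p with both = 0.029). KCP, a secreted regulator of BMP signals, had 9.36 and 8.37 normalised CPM with shATF4, against 43.7 in shCtrl replicate 1 and 222 in shCtrl replicate 2, with log2 changes of -2.30 and -4.58. BEX2 had 6.01 and 4.87 normalised CPM with shATF4, against 25.9 in shCtrl replicate 1 and 39.02 in shCtrl replicate 2, with log2 changes of -2.24 and -2.78. MORN3 had 0.613 and 0.687 normalised CPM with shATF4, against 3.23 in shCtrl replicate 1 and 11.5 in shCtrl replicate 2, with log2 changes of -2.31 and -4.08. The rule of choice placed the shATF4 libraries lowest in all 5 genes, and shCtrl replicate 2 was the highest in each. BOLA2B had log2 changes of -2.92 and -4.21, but it has a near-identical copy, so its counts are uncertain.

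With shCtrl replicate 1 as the control, the knockdown effect on the stress response also differed between thapsigargin and DMSO. With both shCtrl libraries the difference passed in edgeR for GARS1 (adjusted p = 0.036). It did not pass there for CHAC1 (0.19), DDIT3 (0.14), HSPA5 (0.13) or SLC7A11 (0.36). The values that follow are with replicate 1 unless stated. Of the 21 stress response targets, 15 had a lower change in thapsigargin than in DMSO and none a higher one. In DMSO alone, 1 of them was lower and 4 were higher with shATF4. CHAC1 had 4.04 and 3.44 normalised CPM with shATF4, against 4.97 and 4.81 with shCtrl in DMSO, and its effects differed by -1.79 ± 0.29 (adjusted p = 0.0013). DDIT3 had 11.6 and 11.8 normalised CPM with shATF4, against 6.47 and 6.35 with shCtrl in DMSO, where it was higher with shATF4, and its effects differed by -1.87 (adjusted p = 1.3e-05). HSPA5 had 751 and 767 normalised CPM with shATF4, against 761 and 773 with shCtrl in DMSO, and its effects differed by -0.83 (adjusted p = 2.9e-05). GARS1 had 103 and 102 normalised CPM with shATF4, against 94.1 and 100.1 with shCtrl in DMSO, and its effects differed by -1.17 (adjusted p = 2.5e-05). For SLC7A11 the difference was -1.88 (adjusted p = 6.2e-04), and 0.12 with shCtrl replicate 2 in place of replicate 1. The synthetases and transporters gave 9 and 6 lower differences, and none higher. With shCtrl replicate 2 in place of replicate 1 the difference passed for 12126 of all genes (63.6%), and with both shCtrl libraries for 48 (0.27%).

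The knockdown was also read in AA_Dep. There, where 9.91% of all genes passed (3.87% higher, 6.04% lower), 20 of 21 targets were lower with shATF4, median -1.06. The difference between thapsigargin and AA_Dep passed for 1448 of all genes (7.76%), 930 higher (4.99%) and 518 lower (2.78%), and for 1 target, PPP1R15A, with a lower change in thapsigargin. Of the ER chaperones, 10 of 20 had a lower change in thapsigargin than in AA_Dep. HSPA5 had 413 and 406 normalised CPM with shATF4, against 455 and 489 with shCtrl in AA_Dep, and its effects differed by -0.63 (adjusted p = 0.0013). SLC7A11 went the other way, with 23.7 and 22.7 normalised CPM with shATF4, against 89.1 and 135 with shCtrl in AA_Dep, and a difference of 0.97 (adjusted p = 0.045) that did not pass without either shATF4 thapsigargin library (0.068 and 0.14), without either shATF4 AA_Dep library (0.12 and 0.11) or with the replicate block (0.072). In AA_Dep 18 of 22 interferon-stimulated genes were higher with shATF4. IFIT1, an antiviral RNA sensor, had 34.6 and 39.1 normalised CPM with shATF4, against 21.3 in shCtrl replicate 1 and 11.4 in shCtrl replicate 2. In AA_Dep it had 41.2 and 88.2 normalised CPM with shATF4, against 8.998 and 13.8 with shCtrl, a difference of -1.72 (adjusted p = 0.031), which became -0.75 with shCtrl replicate 2 (adjusted p = 0.21) and did not pass without either shATF4 thapsigargin library (0.079 and 0.086) or without shATF4 AA_Dep replicate 2 (0.10). Cholesterol genes were higher in AA_Dep for 15 of 20, and 5 had a lower change in thapsigargin. STC1, a secreted glycoprotein, had 29.1 and 35.2 normalised CPM with shATF4, against 11.8 in shCtrl replicate 1 and 5.70 in shCtrl replicate 2. In AA_Dep it had 80.1 and 77.6 normalised CPM with shATF4, against 100.004 and 112 with shCtrl, a difference of 1.86 (adjusted p = 1.1e-04). With shCtrl replicate 2, the difference from AA_Dep passed for 66% of all genes. With both shCtrl libraries, 0 genes passed in edgeR, and 4110 had an unadjusted p under 0.05. The count also moved with single AA_Dep libraries, to 5137 without shCtrl AA_Dep replicate 1 and to 274 without shATF4 AA_Dep replicate 1.

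The knockdown was read in HMLE cells in thapsigargin as well. ATF4 had 101 and 103 CPM with shATF4, against 688 and 643 with shCtrl there, a log2 change of -2.72, and the effects in LX-2 and HMLE differed by 1.14 (adjusted p = 3.6e-06), but by 0.16 with shCtrl replicate 2 in place of replicate 1 (adjusted p = 0.31). In HMLE, where 13.6% of all genes passed (6.89% higher, 6.72% lower), 19 of the 21 targets were lower and 1 higher. The difference between the cell lines passed for 1180 of 20308 genes (5.81%), 693 higher (3.41%) and 487 lower (2.4%) in LX-2. Of the targets, 9 had a higher change in LX-2 and 3 a lower one. CHAC1 had 11.6 and 9.98 CPM with shATF4, against 148 and 147 with shCtrl in HMLE, and its effects differed by 1.62 (adjusted p = 1.3e-05). HSPA5 had 6964 and 6883 CPM with shATF4, against 9196 and 8642 with shCtrl in HMLE, and its effects differed by -0.45 (adjusted p = 0.0016), one of 9 chaperones with a lower change in LX-2. COL3A1 had 0.730 and 0.919 CPM with shATF4, against 1.49 and 1.16 with shCtrl in HMLE, and its effects differed by 2.73 (adjusted p = 2.9e-07). TNFRSF9, the co-stimulatory receptor 4-1BB, had 6.74 and 9.05 normalised CPM with shATF4, against 4.85 in shCtrl replicate 1 and 5.14 in shCtrl replicate 2 in LX-2. In HMLE it had 1.31 and 1.93 CPM with shATF4, against 10.4 and 8.87 with shCtrl, a difference of 3.26 (adjusted p = 2.6e-08). With shCtrl replicate 2, 57.4% of all genes passed. With both shCtrl libraries, 6.59% did, most of them lower in LX-2 (4.9%, against 1.69% higher).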

How the data were processed

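Total RNA from LX-2 and HMLE cells was prepared with the Qiagen RNeasy and SMARTer mRNA-Seq kits, per the labels' protocols. The deposited files hold raw read counts per Ensembl gene, 58735 per library, of which 58207 have a symbol. The submitters' processing notes name cutadapt, Bowtie2, STAR, HOMER, featureCounts, DESeq and the builds hg19 and hg38, with no versions. Which tool made the counts, and whether strand was used, is not given in the sources used here, so overlapping and antisense genes may share reads. LX-2 totals ran from 14551191 to 18776430, and intervals and floors of 3 counts cover counting error only.

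Counts were fitted with edgeR 4.0.16 (R 4.3.3, TMM factors, filterByExpr by group, quasi-likelihood test, Benjamini-Hochberg adjustment over all genes tested, threshold 0.05). Each fit held every LX-2 group, with 1 coefficient per group, and was run with shCtrl thapsigargin replicate 1, with replicate 2 and with both. The SE printed was derived from the test, as the absolute log2 change divided by the square root of its F statistic. Differences between settings were contrasts of those fits. For the cell lines, the HMLE libraries of all settings, Twist_OE included, were added. The 2 identical HMLE shATF4 AA_Dep libraries were counted once. Alternatives were DESeq2 1.42.0, its size factors, no filter, only the compared groups, fits without single libraries, a replicate block, and calls limited to absolute log2 changes of 1 or more. On simulated counts for the comparison against replicate 1 (18649 genes), 90% of 100 genes changed by 1 on the log2 scale and 100% of 100 changed by 2 were recovered, and 5% of 200 calls were false. Every simulated library, the lone shCtrl one included, was drawn with the fitted spread, and genes of low level were left unchanged. The simulation thus builds in the assumption that this library varies like the others and cannot test it. Its share of false calls does not carry over to the real calls.

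Genes named were ATF4, up to 4 called members of each list by size and up to 2 others, and the extremes of each comparison. Those extremes had to keep their sign with shCtrl replicate 2 in place of replicate 1. Further genes were named after their values were seen. Some genes that the rule selects are counted in their lists but not reported here. The compared groups and all gene lists were chosen with earlier results of these data known. Promoters were matched by symbol to RefSeq sequences (GRCh38.p14), and 12472 of 18527 tested genes with a symbol matched.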

Additional observations from a re-analysis of the deposited data

Results flagged for a closer look

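Differences in the knockdown effect between settings were tested as contrasts in edgeR, with shCtrl replicate 1 as the thapsigargin control. Between thapsigargin and DMSO, 1143 genes differed. The difference was -0.67 for ATF4, -1.79 for CHAC1, -1.87 for DDIT3, -1.17 for GARS1, -0.83 for HSPA5, -1.88 for SLC7A11, -5.45 for HRK and -3.30 for MMP1 on the log2 scale. For the collagen genes COL3A1 and COL1A1 it was 3.53 and 1.62. Between thapsigargin and AA_Dep, 1448 genes differed, with -0.63 for HSPA5, -1.72 for IFIT1, 0.97 for SLC7A11 and 1.86 for STC1. Between LX-2 and HMLE cells in thapsigargin, 1180 genes differed, with 1.14 for ATF4, 1.62 for CHAC1, 2.73 for COL3A1, -0.45 for HSPA5 and 3.26 for TNFRSF9. With shCtrl replicate 2 in place of replicate 1, 1 of these 19 gene differences changed direction, that of SLC7A11 from DMSO (0.12). That of ATF4 from HMLE shrank to 0.16, and that of IFIT1 from AA_Dep shrank as well. Some of the genes were chosen as extremes with the same sign under both control libraries, so for those the direction was fixed in advance. With both shCtrl libraries, 7 of the 19 kept their direction and passed. GARS1 from DMSO, and CHAC1, COL3A1 and HSPA5 from HMLE, were among them. The differences of ATF4, CHAC1, COL3A1, DDIT3, HSPA5, HRK and SLC7A11 from DMSO did not pass there. For the differences from DMSO, AA_Dep and HMLE, 0.27%, 0% and 6.59% of all genes passed there.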

How the results depend on the processing

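The choice of control library moved the results most. With both shCtrl libraries, 41 genes passed in edgeR, against 969 without replicate 2 and 13731 without replicate 1. That count was 3969 with no count filter, 4197 with DESeq2, 24 with the replicate block, 0 (215 at an unadjusted p under 0.05) with only the compared groups, and ranged from 0 to 13731 over libraries left out. Against replicate 1, 191 genes passed with an absolute log2 change of at least 1, 1719 with no filter and 2615 with only the compared groups, and 422 to 490 without 1 shATF4 library. Among list members, 33 passed with an absolute log2 change of at least 1 and 197 with only the compared groups. The difference from DMSO passed for 12126 genes with shCtrl replicate 2, 48 with both, and 616 to 839 with 1 library left out. The difference from AA_Dep passed for 12585, for 0 and, with no filter, for 2462, and for 274 to 5137 with 1 library left out. The difference from HMLE passed for 11856 genes with shCtrl replicate 2, and for 721 to 1157 with 1 library left out. The cause was not tested. Of named genes, 6 that had not passed changed sign when 1 shATF4 library was left out. These were ACTA2 (-0.21 to 0.34), ALDH18A1 (-0.0023 to 0.063), KARS1 (-0.0057 to 0.045), SHMT1 (-0.020 to 0.054), SMAD7 (-0.40 to 0.027) and TXNIP (-0.11 to 0.047), and SLC7A11 did so in the difference from DMSO with shCtrl replicate 2 (0.12). Stress response targets that fell numbered 14 to 16 without 1 shATF4 library, collagens that rose 5, and chaperones that fell 3 to 4. Other alternatives moved these list counts further. In at least 1 alternative the chaperones, the TGF-beta genes and the cholesterol synthesis genes had no call in either direction. Deviations of same-numbered libraries correlated at -0.28 to 0.19. These values cannot tell whether same-numbered libraries were prepared together. With the replicate block, fewer genes passed against each control library, with both, and for the differences from DMSO, AA_Dep and HMLE.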
